A study of Saccharomyces cerevisiae with 219 samples.

Results

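The 10 transcripts described here, COX1, COX2, COX3, COB, ATP6, ATP8, OLI1, VAR1, AI3 and AI4, are encoded by the mitochondrial genome of Saccharomyces cerevisiae. They were taken by gene symbol from the 5710 genes named on the first of the 2 spotted 70-mer array designs of the study, where each has 1 probe. The second design, with 76 of the 219 arrays, names 5691 genes and none of the 10. All values below come from the 143 arrays of the first design. Each array compared Cy5-labelled sample RNA with a Cy3-labelled reference pooled from stationary and exponential RNA, and a ratio above 1 means more signal from the sample than from that pool.

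The study asked whether transcripts of quiescent cells are held in a form that RNA isolation misses. The arrays used here fall into 5 sets. The isolation set (6 arrays) holds unstressed stationary phase cells with RNA extracted by the study's modified Gentra method (aqueous bead-beating lysis), by hot phenol, or with proteinase K during isolation, 2 arrays each. All cultures outside the polymerase set were of MATα S288c carrying markers in HIS3, LEU2, LYS2, TRP1 and URA3, per the methods, and stationary cultures were grown for 7 days. The lysate set (28 arrays) holds cell-free lysates of exponential and stationary cultures kept in buffer or with trypsin, proteinase K or Qiagen protease (2 arrays of each kind), and stationary lysates made 2 min after menadione with trypsin or its buffer. Menadione is a quinone that generates superoxide. The polymerase set (12 arrays) holds stationary cultures of the temperature-sensitive mutant rpb1-1 of RNA polymerase II (MATa ura3-52), its parental strain (MATα ura3-52) and wild-type S288c. Each strain has 2 arrays at 0 min and 1 each at 2 and 30 min of menadione. Per the methods, all strains were grown to stationary phase for longer than the other cultures and at a lower temperature. They were then held at the temperature that inactivates the mutant polymerase before menadione. The 10 s course (25 arrays) followed 7 day stationary cultures after 50 µM menadione, with 6 arrays at T0 and 1 at each later time up to 300 s. The 1 min course (72 arrays) followed stationary cultures after 50 µM menadione, per the study. It has pairs of arrays for 1 to 35 min, 1 min apart, and for 60 min.

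Yeast mitochondrial DNA encodes the hydrophobic core of the respiratory chain. Cox1, Cox2 and Cox3 form the catalytic core of cytochrome c oxidase (complex IV), cytochrome b (COB) belongs to complex III, and Atp6, Atp8 and Oli1 (subunit 9, the rotor ring) form the membrane part of the ATP synthase. VAR1 encodes a protein of the small mitochondrial ribosomal subunit. AI3 and AI4 are reading frames in introns of COX1 and encode homing endonucleases, so a probe for them can detect unspliced precursor or excised intron. The genome is transcribed by its own polymerase, Rpo41 with the factor Mtf1, and not by RNA polymerase II. COX1, ATP8 and ATP6 share a primary transcript, as do OLI1 and VAR1, so the 10 probes are not independent. Yeast mitochondrial messages end in a conserved dodecamer and carry no stable poly(A) tail, whereas the cDNA of this study was primed with oligo-dT.

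Stationary and exponential marker genes were set against each other on every array, as the mean of the stationary markers (such as HSP12 and SSA3) minus that of the exponential markers (such as RPL3 and TEF1) on the log2 scale. The difference lay between 2.94 and 4.82 in the 1 min course and between 2.15 and 3.13 on 23 arrays of the 10 s course, but at -1.90 and -1.73 on T0 replicates 4 and 5 of that course. It lay between -0.39 and 0.45 on the 6 isolation arrays, which the labels call stationary, and between -0.08 and 0.12 on the 4 T0 arrays of the mutant and parental strains. In the lysates it ran from -10.3 to 6.19, and 6 of the 16 arrays labelled stationary lay within the range of the exponential buffer arrays (-10.3 to -2.34). The 4 S288c arrays of the polymerase set held the same values as 4 arrays of the courses, namely T0 replicates 4 and 5 of the 10 s course and a 2 min and a 30 min array of the 1 min course. Usable values ran from 941 to 6605 probes an array. Array medians of the log2 ratio ran from -3.32 to 2.71, so differences are given as deposited and, where it matters, with each array centred on its median. Where a side of a comparison has 1 array, that array is assumed to vary like the other groups of its set. Genes measured on 80% or more of a set's arrays, and in each group compared, were tested with limma. A difference of 2-fold or more with an adjusted p (Benjamini-Hochberg, over all genes tested) below 0.05 is called higher or lower.

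In the isolation set the COX1 intron reading frames were the members that changed most with the method. The ratio of AI4 was 8.96 and 7.13 on the Gentra arrays, 1.40 and 1.22 on the hot phenol arrays, and 2.17 and 2.11 on the proteinase K arrays. That of AI3 was 6.68 and 5.40 with Gentra, 0.793 and 0.709 with hot phenol, and 1.52 and 1.82 with proteinase K. The 3 methods did not overlap for either gene, with Gentra highest and hot phenol lowest. COX1 itself, the gene that contains these introns, was at 4.32 and 2.57 with Gentra, 1.38 and 1.51 with hot phenol, and 1.54 and 1.55 with proteinase K. Here both Gentra arrays lay above the other 4. How many of all genes separate in these ways, with 2 arrays a method, was not counted.

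ATP8 differed in another way, with ratios of 3.47 and 3.74 with Gentra, 1.37 and 1.14 with hot phenol, and 4.30 and 4.41 with proteinase K. Only hot phenol was low for this subunit of the ATP synthase. VAR1, of the mitochondrial ribosome, had 2.17 and 2.28 with Gentra, 1.15 and 1.86 with proteinase K, and 0.752 on the first hot phenol array. Its deposited ratio on the second hot phenol array was -0.375, which was set to missing. ATP6, whose message is made from the same primary transcript as ATP8, was at 3.33 and 2.96 with Gentra and 2.27 and 2.93 with proteinase K, but at 1.64 and 9.33 on the hot phenol replicates, which therefore lay on either side of all other arrays.

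**Figure D1:**
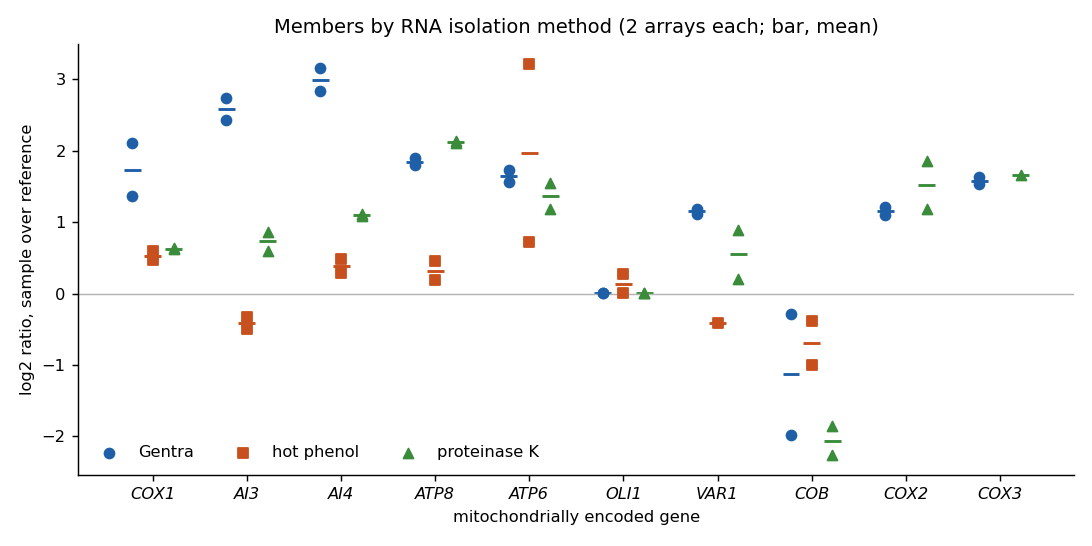
The log2 ratio of sample over reference (vertical axis) of each of the 10 members (horizontal axis) is shown for the 2 arrays of each isolation method, with a bar at the mean. AI3, AI4 and COX1 are highest with Gentra, ATP8 is low with hot phenol alone, and COX2 and COX3 have no hot phenol value.

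COB was the member with low ratios in this set: 0.822 and 0.253 with Gentra, 0.500 and 0.765 with hot phenol, 0.275 and 0.208 with proteinase K. The Gentra replicates differed by more than the methods did. COX2 had 2.15 and 2.31 with Gentra and 2.28 and 3.62 with proteinase K, and COX3 had 3.10 and 2.89 with Gentra and 3.17 on 1 proteinase K array. Neither of these oxidase subunits had a usable value on a hot phenol array, so neither was tested. OLI1 was at 1.0 on 5 of the 6 arrays, and at 1.21 on the other. Among the 5710 genes it was the only one with 3 or more arrays so close to a ratio of 1, and no difference between methods is read from it.

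Between hot phenol and Gentra, 5 of the 8 members tested were lower with hot phenol and none was higher. One of the 5, VAR1, has a single usable hot phenol value, and 4 of the 7 members with 2 arrays a method were called. Over all 4736 genes tested, 9.12% were called lower and 5.13% higher. The log2 difference of AI3 was -3.003 with a standard error of 0.19, or 8.01-fold lower (n = 2 and 2, limma adjusted p = 0.008), and later values are written in the same way with ± for the standard error. AI4 was lower by -2.61 ± 0.18 (6.10-fold, adjusted p = 0.008), ATP8 by -1.53 ± 0.17 (2.89-fold, adjusted p = 0.00944), VAR1 by -1.57 ± 0.35 (2 arrays against 1, adjusted p = 0.0448) and COX1 by -1.21 ± 0.27 (2.31-fold, adjusted p = 0.0348). The median difference of the 8 members was -1.37 and that of all genes tested -0.22. ATP6 (0.32 ± 0.80), COB (0.44 ± 0.59) and OLI1 (0.14 ± 0.16) were not called, and their 95% intervals of -1.71 to 2.35, -1.06 to 1.94 and -0.28 to 0.55 leave room in the first 2 for changes of more than 2-fold in either direction. With each array centred on its median, AI3 (-2.78), AI4 (-2.38) and ATP8 (-1.31) were called, and COX1 (-0.98, adjusted p = 0.0548) and VAR1 (-1.34, adjusted p = 0.0616) were not, with 5.3% of all genes then called lower and 7.5% higher. When Gentra replicate 1, hot phenol replicate 1 or hot phenol replicate 2 was left out, no member was called, though the differences of AI3 (-3.08 to -2.85) and AI4 (-2.71 to -2.44) stayed as large (adjusted p = 0.0509 to 0.0682).

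With proteinase K during isolation, 3 of the 8 members were lower than with Gentra, against 10.7% of all genes called lower and 17.1% called higher. They were AI4 (-1.90 ± 0.18, 3.73-fold, adjusted p = 0.00271), AI3 (-1.85 ± 0.19, 3.61-fold, adjusted p = 0.00316) and COX1 (-1.11 ± 0.27, 2.16-fold, adjusted p = 0.0274). The same 3 genes were called after centring, with 15.1% of all genes then called lower. ATP8 differed by 0.27 ± 0.17 (95% interval -0.15 to 0.69) and VAR1 by -0.61 ± 0.28 (adjusted p = 0.159). The members' median was -0.77, while that of all genes was 0.25. Between the 2 other methods, ATP8 (-1.81 ± 0.17, adjusted p = 0.00155) and AI3 (-1.15 ± 0.19, adjusted p = 0.00698) were lower with hot phenol than with proteinase K, where 27.4% of all genes were called lower and 11.1% higher. After centring, ATP8 was still called (-1.32), AI3 was not (-0.66), and COB was called higher with hot phenol (1.86 ± 0.58, adjusted p = 0.0474), with 13.5% of all genes then called lower and 19.9% higher. All 3 comparisons draw on the same 6 arrays and are not independent.

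Ranks within an array do not depend on its scale. AI4 stood at percentiles 99.8 and 99.7 of the genes with a value on the Gentra arrays, at 85.6 and 80.8 with hot phenol and at 71.7 and 67.4 with proteinase K. AI3 stood at 99.1 and 99.4 with Gentra, 17.1 and 9.1 with hot phenol, and 54.6 and 60.8 with proteinase K. COX1 moved less between Gentra (96.6 and 94.6) and hot phenol (84.7 and 92.0) than to proteinase K (55.3 and 54.0). By rank, then, AI3 was the only one of the 3 that hot phenol placed in the lower range of the array.

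The other reading frames of the mitochondrial genome on this design were 9 further probes. AI5_BETA, in another COX1 intron, was at 5.67 and 4.56 with Gentra, 1.10 and 0.974 with hot phenol, and 1.69 and 1.72 with proteinase K. It was called lower with hot phenol (-2.30 ± 0.18, adjusted p = 0.00846) and with proteinase K (-1.58 ± 0.18, adjusted p = 0.00354). The group II intron reading frames AI1 and AI2 were not called in either comparison (AI1, -0.83 ± 0.26 and -0.72 ± 0.26; AI2, -0.60 ± 0.16 and -0.30 ± 0.16). In all, 1 of the 6 further reading frames tested was called in each comparison with Gentra.

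Nuclear subunits of the same complexes were called in the opposite direction with hot phenol. Of the 32 nuclear genes of complexes III and IV and of the ATP synthase that were tested, 22 were higher with hot phenol than with Gentra and 0 were lower (median 1.22). In complex III 6 of 9 were higher, with the Rieske iron-sulfur protein RIP1 at 1.52 ± 0.14 (adjusted p = 0.00944). In complex IV 5 of 8 were higher, with COX6 at 2.02 ± 0.23 (adjusted p = 0.00954), and in the ATP synthase 11 of 15, with the dimer subunit ATP20 at 2.28 ± 0.24 (adjusted p = 0.00944). With proteinase K, 2 of these 32 genes were higher and 14 lower than with Gentra (median -0.80). The ATP synthase accounted for 9 of the 14, among them the catalytic subunit ATP2 (-1.75 ± 0.19, adjusted p = 0.0032). The difference between the lists was not tested.

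**Figure D2:**
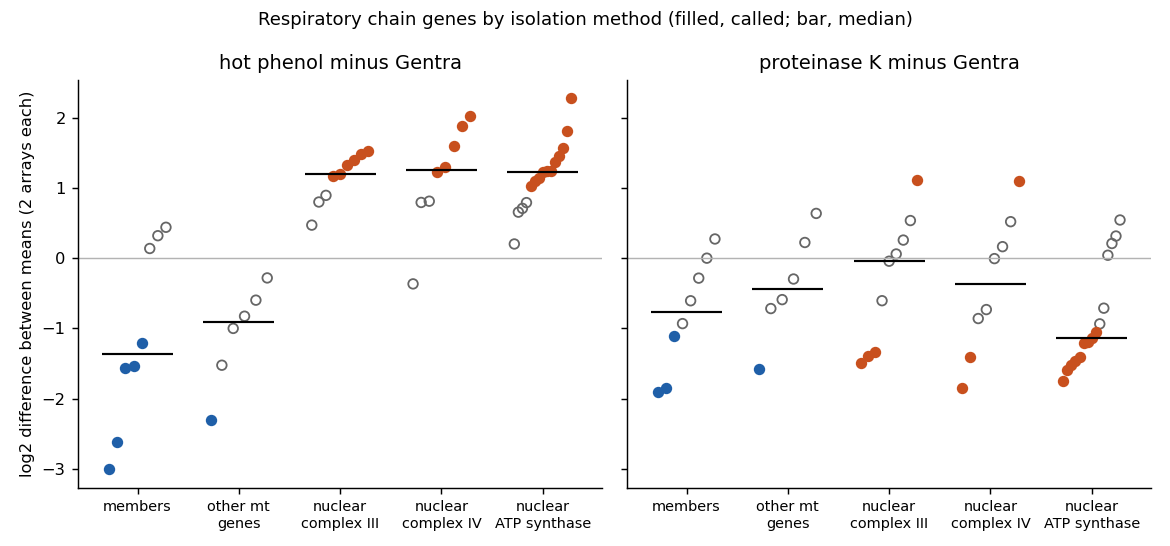
Log2 differences between isolation methods (vertical axis, means of 2 arrays each) are shown for the members, the other mitochondrial reading frames and the nuclear subunits of 3 respiratory complexes. Filled points were called, open points were not and bars are medians, and with hot phenol 5 members are called below 0 while 22 nuclear genes are called above 0.

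The hot phenol arrays had a narrow range of ratios, and their values lay near 1 for members and nuclear subunits alike. The width from the 5th to the 95th percentile of log2 ratios was 1.81 and 1.62 with hot phenol, 3.22 and 2.50 with Gentra and 3.83 and 4.07 with proteinase K. The 8 tested members had a median of their mean log2 ratios of 1.69 with Gentra and 0.23 with hot phenol, and the 32 nuclear genes of -1.18 with Gentra and 0.04 with hot phenol. The 2 hot phenol arrays correlated with each other at r = 0.44 across genes and with the Gentra arrays at 0.14 to 0.22, while the Gentra pair correlated at 0.74 and the proteinase K pair at 0.88. The part of this compression in the differences was not tested.

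Lists of genes that act on mitochondrial RNA or its translation were set beside all genes tested. With hot phenol 9.12% of all genes were called lower and 5.13% higher than with Gentra. Of 31 small ribosomal subunit proteins tested, 2 were lower and 0 higher than with Gentra, MRPS16 by the most (-3.43 ± 0.34, adjusted p = 0.0103). Of 5 genes of transcription and RNA decay, MTF1, the initiation factor of the mitochondrial polymerase, was lower (-1.16 ± 0.20, adjusted p = 0.0277), a call that centring ended. Of 4 splicing genes, MNE1, a COX1 intron splicing factor, was lower (-1.54 ± 0.23, adjusted p = 0.0139), and none of 17 translational activators was called. With proteinase K, PET309, which activates translation of COX1 mRNA, was higher (1.62 ± 0.26, adjusted p = 0.0133) and NUC1, a mitochondrial nuclease, was lower (-1.45 ± 0.26, adjusted p = 0.0115). In that comparison 10.7% of all genes were called lower and 17.1% higher.

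The lysates allowed the members to be compared between growth states. The clearest pair was the buffer arrays of the trypsin experiment. OLI1 had log2 ratios of -3.40 and -2.99 on the exponential arrays and of 1.11 and 4.78 on the stationary arrays. COX1 had -1.17 and -1.87 against 1.78 and 3.40, and ATP8 -0.47 and -0.42 against 2.13 and 4.84. AI4 had -2.12 and -2.90 against 0.56 and 3.53, and ATP6 -0.65 and -0.87 against 1.38 and 3.91. For these 5 genes every stationary array lay above both exponential arrays, although the stationary replicates lay far apart. The share of all genes that separate in this way was not counted. COB, the other member tested, is given below.

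In that experiment 5 of the 6 members tested were higher in stationary than in exponential lysates, against 7.51% of 2502 genes called higher and 36.1% called lower. OLI1 was higher by 6.13 ± 1.34 (2 arrays against 2, 70.2-fold, adjusted p = 0.0023), AI4 by 4.55 ± 1.30 (adjusted p = 0.00943), COX1 by 4.11 ± 1.07 (adjusted p = 0.00651), ATP8 by 3.93 ± 1.29 (adjusted p = 0.0196) and ATP6 by 3.40 ± 1.22 (adjusted p = 0.0338). COB differed by 2.54 ± 1.202 and was not called (adjusted p = 0.0969). All 6 were called after centring, against 24.5% of genes called higher. With the second exponential array left out 1 member was called, with the first exponential array 3, with the second stationary array 2 and with the first stationary array 6. Each experiment on its own was a comparison added after the data had been seen. In the proteinase K and Qiagen protease experiments no member was called between growth states, where 1 of 2550 genes (0.0392%) was called lower in the former and 0 of 2472 in the latter (505 at an unadjusted p under 0.05). In the proteinase K experiment 1 of the 2 stationary buffer arrays lay in the marker range of the exponential arrays.

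Over the 3 experiments together, 1 of 6 members was higher in stationary buffer lysates, COX1 at 1.86 ± 0.71 (4 arrays against 6, adjusted p = 0.0318), against 1.87% of 2410 genes called higher and 62.1% called lower. ATP8 ranged from -3.16 to -0.00 on the 6 exponential buffer arrays (median -0.45) and from -4.68 to 4.84 on the 6 stationary ones (median -0.26), so the growth states overlapped. In whole cultures, a change in the share of cells that hold a transcript and a change in RNA per cell cannot be told apart. OLI1 ranged from -3.40 to -1.06 and from -3.82 to 4.78. The members' median difference was 1.03 where that of all genes was -2.26. With each array centred on its median, all 6 tested members were called higher (2.11 to 4.41), against 19.0% of all genes called higher and 17.9% lower. Without the arrays in doubt by their markers, 4 members were called (COX1, ATP6, ATP8 and OLI1, 1.61 to 1.86), against 4.2% called higher. Only arrays labelled stationary were left out, by a marker difference that these 4 genes follow over the lysate arrays (r = 0.919 to 0.951, centred values). Higher differences in that fit are thus partly set by the choice of arrays and are no separate support for a difference between growth states. The call of COX1 was lost when any of 5 of the 12 buffer arrays was left out, namely exponential Qiagen replicate 1, proteinase K replicates 1 and 2 and trypsin replicate 2, and stationary trypsin replicate 2, with differences of 1.59 to 1.86 (adjusted p = 0.0507 to 0.0672). Without stationary Qiagen replicate 2 or proteinase K replicate 1 it could not be tested.

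Most nuclear subunits were not called on the deposited scale, where 62.1% of all genes were called lower: 1 of 9 genes of complex III was lower (cytochrome c1, CYT1, -2.57 ± 0.72, adjusted p = 0.00553), 1 of 7 of complex IV was higher (COX7, 1.37 ± 0.59, adjusted p = 0.0495), and in the ATP synthase 1 of 15 was higher (its inhibitor INH1, 1.62 ± 0.59, adjusted p = 0.0224) and 6 were lower, ATP2 by the most (-2.71 ± 0.89, adjusted p = 0.0136). After centring, 7 of 9, 4 of 7 and 4 of 15 were higher and 0 lower, with medians of 1.84, 2.06 and 1.10 beside the members' 3.36. Small ribosomal subunit proteins were lower in 13 of 20 cases on the deposited scale, a share near that of all genes, and after centring 1 was higher and 1 lower.

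The arrays labelled stationary and exponential overlapped in the levels of ATP8 and OLI1, which rose with the marker difference of the array (r = 0.941 and 0.94). ATP8 and OLI1 had a value on all 28 arrays. On the 11 arrays with a marker difference of -10.3 to -8.22, ATP8 stood between -5.48 and -2.97 relative to its array's median and OLI1 between -5.89 and -2.68. Of these arrays 8 are labelled exponential and 3 stationary. On 13 arrays with a difference of -2.95 to 0.49, 9 of them labelled stationary, ATP8 ran from -1.14 to 1.94 and OLI1 from -1.68 to 0.72. On the 4 arrays with a difference of 5.42 to 6.19, all labelled stationary and from the trypsin experiment, ATP8 ran from 2.16 to 3.76 and OLI1 from 2.11 to 3.69. The 3 ranges did not overlap for either gene. The groups of arrays were cut at gaps in the marker difference after the data had been seen. For genes that follow this difference so closely, separation of the groups was largely set in advance, and nothing about the labels is read from it. The share of all genes that separate in this way was not counted. The 3 arrays that are labelled stationary and lay among the lowest were the second proteinase K buffer array and both arrays treated with proteinase K, and that buffer array correlated at r = 0.85 to 0.89 across genes with the exponential arrays of the same experiment.

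**Figure D3:**
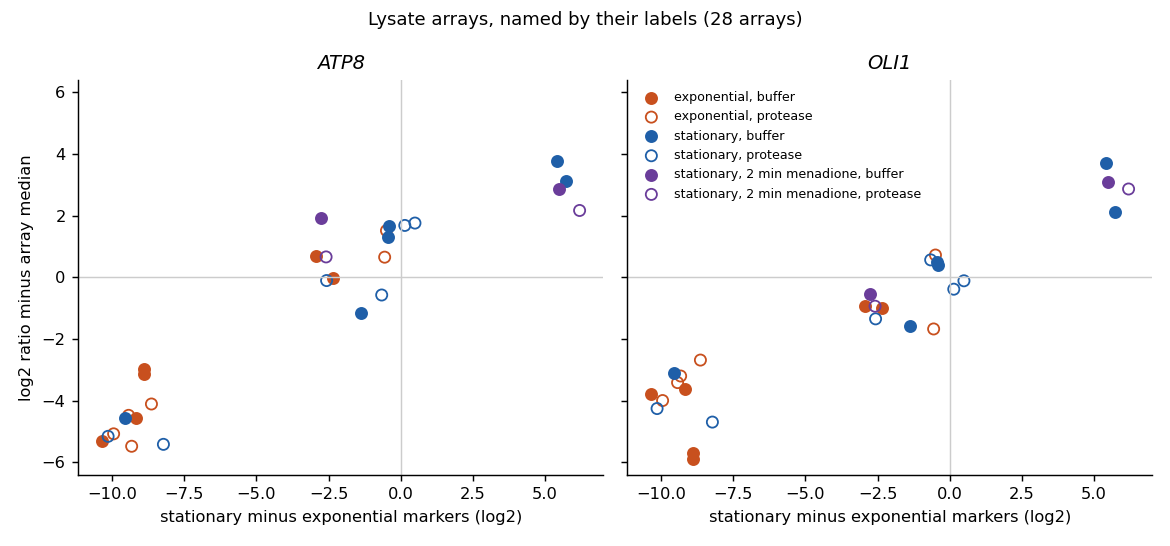
The log2 ratio of ATP8 and of OLI1 relative to the array median (vertical axis) is plotted against the stationary minus exponential marker difference (horizontal axis, log2) for 28 lysate arrays, with colour for the labelled state and filled points for buffer. The 11 arrays at the left have ATP8 at or below -2.97, and 3 of them are labelled stationary.

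No difference between protease and buffer passed the test for any member in the main fit. Per the methods each cell-free lysate was split between protease and buffer. The main fits, in stationary and exponential lysates, did not pair the tubes. In stationary lysates 3 members could be tested. ATP8 differed by -0.34 ± 0.74 (6 arrays against 6, 95% interval -1.89 to 1.21), OLI1 by -0.39 ± 0.77 (-1.997 to 1.22) and COB by 1.39 ± 0.85 (4 arrays against 5, -0.42 to 3.19). Of 2399 genes, 16.5% were called higher with protease and 0.0417% lower, and the median difference was 1.37. None of the 3 members was among them. With the second trypsin buffer array left out, COB was called higher with protease (2.02, adjusted p = 0.0407). After centring, 0 of 2399 genes were called by limma, and ATP8 stood at -1.99 ± 0.73 and OLI1 at -2.04 ± 0.77 (adjusted p = 0.204 for each, 0 members called). The intervals of ATP8 and OLI1 hold changes of 2-fold in either direction, and that of COB holds a 2-fold increase.

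The trypsin experiment, whose buffer arrays were clearly stationary by their markers, showed the spread of single arrays. ATP8 was at 2.13 and 4.84 in buffer and at 4.14 and 3.92 with trypsin. OLI1 was at 1.11 and 4.78 in buffer and 2.27 and 1.85 with trypsin, and COB at -0.60 and 3.18 in buffer and 4.25 and 3.74 with trypsin. The treated arrays lay inside the range of the buffer arrays for ATP8 and OLI1 and above it for COB. The array medians were -1.0 and 1.09 in buffer and 2.39 and 2.24 with trypsin, and the marker difference was 5.72 and 5.42 in buffer and 0.49 and 0.14 with trypsin. The part of these shifts in the members' values was not tested.

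In exponential lysates 5 members were tested, and protease differed from buffer by between -0.47 ± 0.74 (ATP8) and 0.92 ± 0.77 (OLI1), with no member called and 0 of 2461 genes called by limma (29 at an unadjusted p under 0.05). The second Qiagen-treated array labelled exponential correlated at r = 0.155 and 0.257 across genes with the Qiagen buffer arrays of its label. Its highest correlations with lysate arrays were 0.764 and 0.772, with the second Qiagen and first proteinase K stationary buffer arrays. Without it, the differences of COX1 (-0.40) and ATP6 (-0.21) turned negative. The difference of the protease effect between growth states could be tested in ATP8 (0.13 ± 1.05) and OLI1 (-1.30 ± 1.09), and neither was called (adjusted p = 0.938 and 0.39, 0 of 2304 genes called, 743 at an unadjusted p under 0.05). At 2 min of menadione against 0 min in trypsin buffer lysates, 6 members were tested and 0 called, with differences from -1.44 ± 1.08 (COX1) to -0.18 ± 1.30 (AI4) and 0 of 2530 genes called (98 at an unadjusted p under 0.05).

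In the polymerase set AI4, ATP8 and ATP6 had lower ratios in the parental strain before menadione than after it. AI4 was at log2 ratios of 1.80 and 0.31 in the parental strain at 0 min, 3.33 at 2 min and 3.69 at 30 min, and at 3.58, 3.06 and 3.98 in the RNA polymerase II mutant, whose second 0 min array gave no value. ATP8 was at 0.74 and 0.38, then 3.32 and 2.86 in the parental strain, and at 2.00, 1.64 and 2.35 in the mutant. ATP6 was at -0.43 on 1 parental array at 0 min, then 3.01 and 2.43, and at 0.92, 1.61 and 2.50 in the mutant. The share of all genes with both later parental arrays above those at 0 min was not counted. For each of the 3 genes the parental arrays at 2 and 30 min lay above those at 0 min. Their whole profile differed as well: across genes these 2 arrays correlated at r = -0.17 to 0.04 with the parental 0 min arrays, at 0.78 with each other and at 0.80 to 0.89 with the S288c arrays at 2 and 30 min, which are also 1 min course arrays. In the mutant the later arrays correlated at 0.68 to 0.70 with the first 0 min array. The part of this shift in the members' values was not tested. In the mutant AI4 and ATP8 moved by less than 1 log2 unit between times and only ATP6 was higher at each later time.

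No member was called in this set on the deposited scale. In simulated data the fit for the parental strain recovered 0 of 50 genes changed by 4 log2 units. On the deposited values the same fit did call genes, as given next, so this recovery does not measure its power. In the parental strain the difference between 2 and 30 min together and 0 min was 3.15 ± 0.85 for ATP6 (2 arrays against 1, adjusted p = 0.0636), 2.54 ± 0.65 for ATP8 (2 against 2, adjusted p = 0.0508) and 2.45 ± 0.78 for AI4 (adjusted p = 0.08), where 8.55% of 1696 genes were called higher and 4.54% lower. With the first parental 0 min array left out, ATP6 was called (3.15, adjusted p = 0.0497). With each array centred, all 3 were called higher, ATP6 by 2.15 ± 0.43 (adjusted p = 0.0295), ATP8 by 2.04 ± 0.39 (adjusted p = 0.0176) and AI4 by 1.95 ± 0.36 (adjusted p = 0.0165), against 20.7% of genes called higher. In the mutant the same difference was -0.06 ± 0.96 for AI4, -0.00 ± 0.78 for ATP8 and 1.14 ± 0.85 for ATP6 (2 arrays against 1, 0 of 1402 genes called, 384 at an unadjusted p under 0.05). The test of the difference between the strains gave -2.51 ± 1.24 for AI4 and -2.54 ± 1.00 for ATP8 (adjusted p = 0.27 and 0.201, 0 of 1367 genes called, 333 at an unadjusted p under 0.05), and after centring both were called (-2.84 ± 0.57, adjusted p = 0.0432, and -2.87 ± 0.61, adjusted p = 0.047), against 7.39% of genes called lower. These tests have no replicate in the mutant at 0 min. Each time after 0 min has 1 array a strain, and the mutant's 0 min value rests on 1 array, since its replicate held 742 genes with a value and a median log2 ratio of -3.32.

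**Figure D4:**
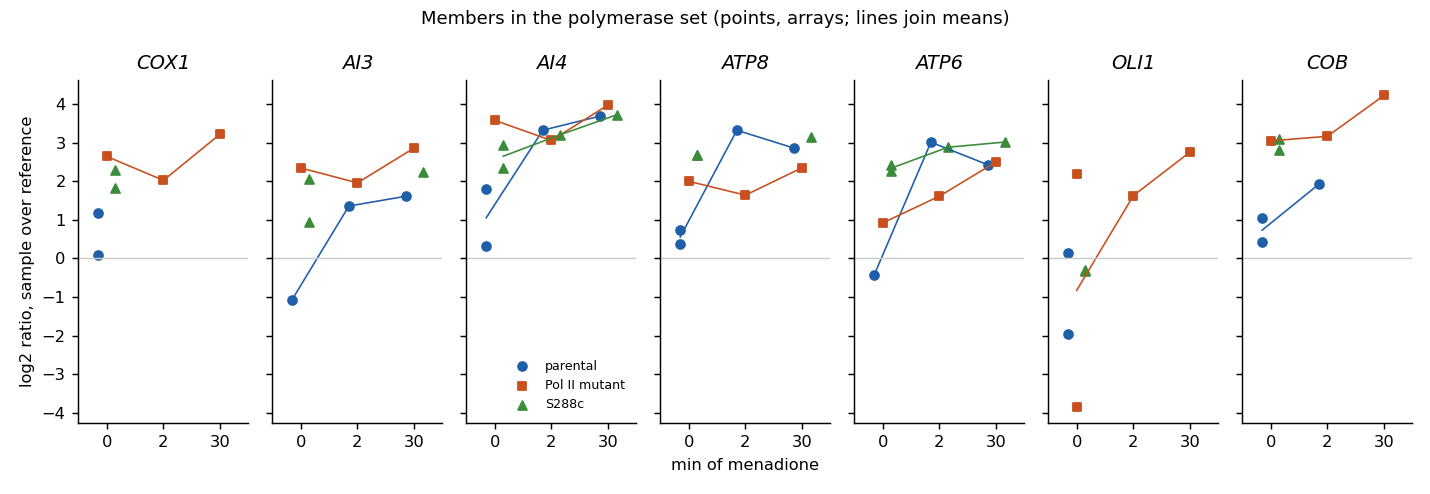
The log2 ratio of 7 members (vertical axis) is shown at 0, 2 and 30 min of menadione (horizontal axis, not to scale) for the parental strain, the RNA polymerase II mutant and S288c, with points for arrays and lines joining means. In the parental strain AI4, ATP8 and ATP6 are lower at 0 min than later, and the second mutant array at 0 min gives a value for OLI1 alone (-3.86).

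On the mutant's first array at 0 min AI4 was 2.53 ± 0.96 higher than in the parental strain (1 array against 2, adjusted p = 0.136). After centring it was 3.33 ± 0.45 higher (adjusted p = 0.0421, with 1.73% of 1499 genes called higher). On the deposited scale 0 of 1499 genes were called (479 at an unadjusted p under 0.05). Without the second mutant array 2 of 4 members were called, AI4 among them (2.53, adjusted p = 0.0231). COB and OLI1 were at 3.05 and 2.20 on the mutant's first 0 min array and at 0.42, 1.05 and at 0.13, -1.95 in the parental strain. In S288c AI4 was at 2.95 and 2.35 at 0 min, 3.21 at 2 min and 3.72 at 30 min, with a difference of 0.81 ± 0.78 that was not called (adjusted p = 0.493). As these are arrays of the 10 s course at 0 min and of the 1 min course later, this comparison also crosses 2 experiments. Here 12.2% of 1584 genes were called higher and 9.34% lower.

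The 10 s course gave COX1, COB, ATP6 and OLI1 on 24 or 25 of its 25 arrays. OLI1 lay between 2.32 and 2.73 at T0 (replicates 1, 2, 3 and 6), between 2.74 and 3.28 from 10 to 60 s, between 2.33 and 3.35 from 70 to 110 s, and between 3.06 and 4.50 from 120 to 180 s. At T0 replicates 4 and 5, the arrays shared with the polymerase set, it was at -0.33 and -0.30. COB lay between 1.53 and 2.11 at the same 4 T0 arrays (replicates 1, 2, 3 and 6) and between 2.80 and 4.55 from 120 to 180 s. At T0 replicates 4 and 5 COB was at 3.10 and 2.81, inside the late range. All 7 late arrays thus lay above these 4 T0 arrays for OLI1 and COB, and above all 6 for OLI1 alone. The array medians separated as well, at 0.97 to 1.36 on these 4 T0 arrays and 1.94 to 2.40 on the late arrays. Relative to the array median, OLI1 was at 1.35 to 1.525 on these T0 arrays and 1.12 to 2.15 late. COB was at 0.53 to 1.015 and 0.63 to 2.205, so both genes overlapped. The share of all genes that separate in this way was not counted.

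From 120 to 180 s, 3 of 5 members tested were higher than at T0: OLI1 by 2.38 ± 0.69 (7 arrays against 6, 5.20-fold, adjusted p = 0.0232), COB by 1.16 ± 0.36 (2.24-fold, adjusted p = 0.0265) and ATP6 by 1.06 ± 0.33 (2.09-fold, adjusted p = 0.0276). COX1 differed by 1.71 ± 0.67 (adjusted p = 0.0508) and AI4 by 0.62 ± 0.76 (adjusted p = 0.462). Of 3914 genes, 63.2% were called higher and 0 lower, and the median difference of all genes was 1.43 against 1.16 for the members. The members' differences thus lay near that of the median gene. After centring, 0 of 3914 genes were called by limma and the members' median was -0.32. With T0 replicate 6, 2 or 3 left out, 1, 2 and 4 members were called. Without the 2 shared T0 arrays the same 3 members were called, against 58% of genes, with OLI1 at 1.44 ± 0.17 and COB at 1.52 ± 0.19 (adjusted p = 0.00446 for each). From 10 to 60 s none of 4 members was called (0.18 ± 0.37 for COB to 1.48 ± 0.72 for OLI1, 6 arrays against 6, 0 of 3962 genes called, 882 at an unadjusted p under 0.05). The intron reading frame AI4 ran from -2.0 to 4.84 between 120 and 180 s, and ATP8, AI3, VAR1 and COX3 had values on only part of the arrays, several of them exactly 0, 1 or -1.

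**Figure D5:**
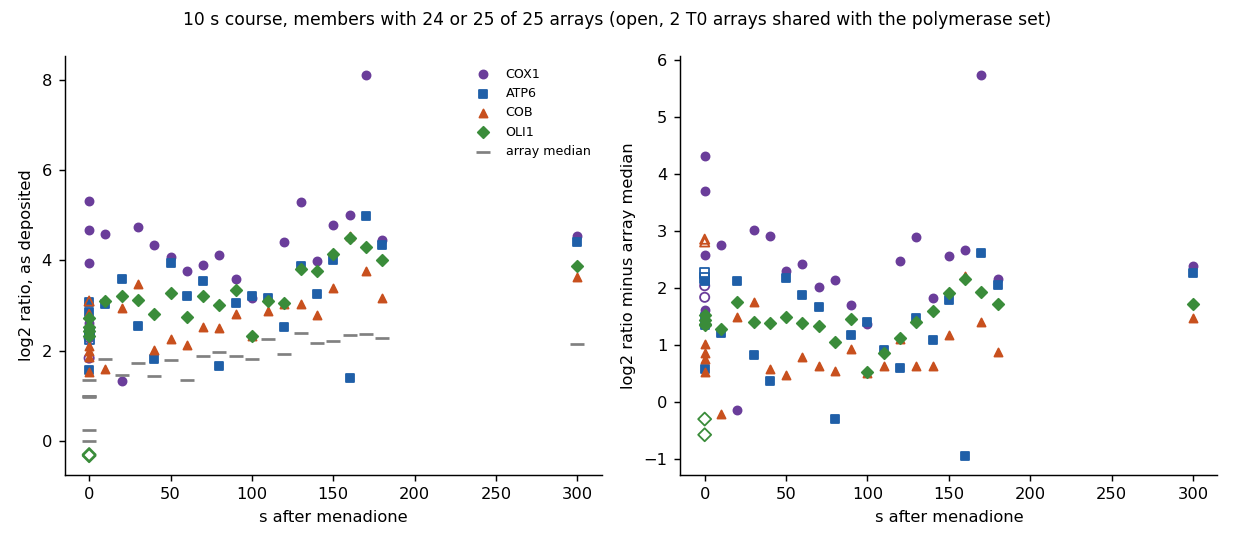
The log2 ratio of 4 members (vertical axis) against seconds after menadione (horizontal axis), is shown as deposited, with each array's median as a grey dash (left), and after subtraction of that median (right), with open symbols for the 2 shared T0 arrays. OLI1 lies at 3.06 to 4.50 from 120 to 180 s, where the array medians of 1.94 to 2.40 also lie above those at T0.

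In the 1 min course 3 members could be tested. AI4 ran from 0.55 to 4.74 over 70 of 72 arrays (median 3.39), ATP8 from 0.54 to 4.41 over 60 (median 3.25) and ATP6 from 0.46 to 4.08 over 71 (median 3.02). After centring, their medians lay 2.56 to 2.94 above the median gene of the array. Between 26 to 35 min and 1 to 10 min, AI4 differed by 0.60 ± 0.30, ATP8 by 0.05 ± 0.24 and ATP6 by -0.04 ± 0.20 (limma, 0 of 3787 genes called, 241 at an unadjusted p under 0.05). The intervals of ATP8 (-0.44 to 0.53) and ATP6 (-0.45 to 0.37) lie within 2-fold. They take successive times of the same series as independent arrays, so they do not bound the change between cultures.

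The other members were read in a manner that depended on the series of the 1 min course. COX2 had a value on 33 of 36 arrays of replicate 1 and on 2 of 36 of replicate 2, COX3 on 19 and 0, and VAR1 on 24 and 4. COX1 had a value on 3 of the 72 arrays, OLI1 on 1 and COB on 0. AI3 had a value on 55 (median 1.28), and lay below AI4 in both series, with medians of 1.21 and 1.33 against 3.25 and 3.58. Ratios to a reference give no order of RNA amounts between genes.

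Over the 143 arrays, each centred on its median, the genes outside the mitochondrial genome whose pattern was most like the mean of ATP6, ATP8 and AI4 were SPG1 (Pearson r = 0.912, 142 arrays), SSA3 (0.889, 137), TMA10 (0.871, 142), SPS100 (0.868, 138) and ACS1 (0.867, 132). The median r of the 3385 genes compared was -0.09, and the 3 members correlated with each other at 0.83 to 0.87. SPG1 is needed for survival at stationary phase, SSA3 encodes a heat-inducible Hsp70 and ACS1 an acetyl-CoA synthetase. The arrays share their reference and differ in culture state, so these correlations describe the series and carry no test.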

How the data were processed

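The authors hybridized Cy5 sample and Cy3 reference cDNA, with Arabidopsis CAB RNA added for normalization. The authors deposited log2 ratios for the 10 s course, which the labels describe as scaled to exogenous RNA, and linear ratios with the background subtracted everywhere else; whether the normalization is in them is not stated. Linear ratios at or below 0 and the marker 100000 were set to missing (percent at or below 0 from 0.157 to 37.9 on an array) and log2 was taken. Of 6979 probes, 5923 named a gene. The tests had been planned for log2 values throughout.

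Each set was fitted with limma 3.58.1 (R 4.3.3) as cell means with empirical Bayes, over all genes with a value in 80% of arrays. Fits were tested on simulated data. Of 50 genes changed by 4 log2 units, they recovered 0 for parental menadione. The fit of the deposited values did call genes there, so that recovery does not measure its power. In the other comparisons simulated they recovered from 38 (protease, stationary lysates) to 50 (1 min course). Of 50 genes changed by 1 log2 unit, 0 to 16 were recovered, and 0 to 13 unchanged genes were called. Python 3.11.15, NumPy 2.4.6, pandas 2.3.3 and Matplotlib 3.10.9 were used. Members, lists and tests were chosen with earlier results of these data known. All 10 members are named; the rule for the other lists was the largest called gene in each direction in the isolation and lysate comparisons, of which those of the chief lists are printed, and the 5 most alike genes. Isolation and protease arrays are biological replicates per the methods; elsewhere p-values measure only the spread between arrays. Replicate numbers did not pair samples in the isolation and polymerase sets; in the 1 min course, where a number marks a series and the methods treat each course as a block, deviations of same-numbered arrays correlated above 0.1 in 621 of 630 pairs of times. The courses over hours and the 0 min arrays of the 1 min course lie on the second design and were not analysed here. Alternatives were centring, a value in every array, robust moderation, only the arrays compared, a floor for values at or below 0, the median over probes, a replicate block and each array left out. Chosen after seeing the data were fits without the lysate arrays in doubt or the shared T0 arrays, each protease experiment alone, and a block with crossed numbers. Intensities were not used, so signal over background is unknown.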

Additional observations from a re-analysis of the deposited data

How the results depend on the processing

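The main limit is scale, since array medians differ and signal over background is unknown. Centring each array changed the number of members called from 5 to 3 (hot phenol against Gentra), 1 to 6 (stationary against exponential buffer), 0 to 3 (parental menadione), 0 to 1 (mutant against parental strain at 0 min), 0 to 2 (menadione, mutant minus parental) and 3 to 0 (120 to 180 s). It turned the sign for COX1 (0.39, hot phenol against proteinase K), COB (-0.0201) with protease, ATP8 (-1.72) in the difference of protease effects, COB (2.11) between growth states, ATP8 (-0.0274) in the 1 min course, COX1 (-0.47), COB (-0.66) and ATP6 (-0.23) at 10 to 60 s, and COB (-0.32), ATP6 (-0.42) and AI4 (-0.91) at 120 to 180 s. Fitting only the arrays compared gave 3 members for hot phenol against Gentra, 0 for growth states (COB 0.25) and 2 for parental menadione. For growth states a value in every array and a floor each gave 0, leaving out the arrays in doubt 4, and the trypsin, proteinase K and Qiagen experiments alone 5, 0 and 0. Without the arrays in doubt ATP8 (0.13) and OLI1 (0.41) turned with protease and ATP6 (0.36) at 2 min, without the 2 shared T0 arrays COX1 (-0.33) at 10 to 60 s, and with a floor ATP6 (0.25) in the 1 min course. The causes were not tested.

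Same-numbered samples did not deviate together in the isolation set (correlations of deviations from -0.03 to 0.06) or the polymerase set (-0.02 to 0.08), and the correlations ran from -0.676 to 0.883 over 7 pairs in the lysates. In the 1 min course they were above 0.1 in 621 of 630 pairs of times. There the series as a replicate block called 0 members, as without it (AI4 0.59, ATP8 0.04, ATP6 -0.03). With the replicate number as a block, 3 members were called for hot phenol against Gentra. Leaving out 1 array at a time gave 0 to 4 members there, 0 to 1 for protease in stationary lysates, 0 to 3 for growth states, 0 to 2 for mutant against parental strain, 0 to 1 for parental menadione and 1 to 4 for 120 to 180 s. Signs turned within these ranges: against Gentra COB -0.41 to 1.29, ATP6 -0.93 to 1.57 and OLI1 -0.00144 to 0.28 with hot phenol; against proteinase K ATP6 -0.65 to 1.86 and OLI1 -0.00144 to 0.28; with protease in stationary lysates ATP8 -1.06 to 0.38 and OLI1 -0.999 to 0.23, in exponential lysates COX1 -0.40 to 0.91, ATP6 -0.21 to 0.64 and AI4 -0.89 to 0.10, and between them ATP8 -0.59 to 0.86. The same held for growth states (COB -0.81 to 0.45) and 2 min against 0 min (COB -2.31 to 1.47, ATP6 -1.96 to 0.57, ATP8 -1.62 to 1.10, OLI1 -2.68 to 0.998, AI4 -1.67 to 1.31). In the 1 min course, leaving out 1 of the 2 series gave ATP6 0.14, ATP8 -0.0588 and AI4 -0.0293, each in the series where it could be tested. With the numbers of the stationary Qiagen protease arrays crossed in the replicate block, a fit chosen after seeing the data, 0 members were called for protease against buffer or for its difference between growth states.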
